A study of Homo sapiens with 5 samples.

Results

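The respiratory chain subunits encoded in the nucleus were followed in 5 clones of the esophageal carcinoma line TE7, which is of human origin. Genes were taken by symbol, from the NDUF subunits of complex I to the ATP5 subunits of complex V, one gene per symbol, without pseudogenes, assembly factors or non-coding transcripts. Of 14812 named genes in the deposited table, 25 met this rule. RefSeq holds 86 protein-coding genes that fit the same rule, so 61 were not analysed here because the annotation used pairs no probe set with them. All 17 genes of complex IV were covered, 5 of 9 of complex III and 3 of 19 of complex V. None of the 37 genes of complex I and none of the 4 of complex II had a named probe set. The description below is therefore mainly one of cytochrome c oxidase, with a few subunits of complexes III and V.

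The 2 groups were 2 clones transduced with pMIRNA1-puro-control and 3 clones transduced with pMIRNA1-puro-CDH26, a construct for expression of the cadherin CDH26. Each clone was grown from a single cell of the same line. Before RNA was taken, every clone spent 24 h in RPMI at 1.8 mM calcium. Total RNA from every clone was read on an Affymetrix Gene 2.0 ST array. The promoter of the construct and the selection of the clones are not described in the sources used here.

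The respiratory chain sits in the inner mitochondrial membrane. Electrons from NADH enter through complex I and those from succinate through complex II. Complex III passes them from ubiquinol to cytochrome c, and complex IV hands them to oxygen. The protons pumped along the way drive complex V, the ATP synthase. Complexes III, IV and V combine subunits made in the mitochondrion with subunits encoded in the nucleus and imported. In complex IV the catalytic core is mitochondrially encoded, and the nuclear COX4 to COX8 subunits surround it and adjust its stability and activity. Several of them exist as a widely expressed form and a form restricted to muscle, lung or testis. Many of these genes have promoters bound by the nuclear respiratory factor NRF1 or by the ETS family factor GABP.

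Promoter windows of 6 genes are shown first, taken from those with a marked motif in the stretch shown. Subunits without such a motif in this stretch, among them COX6B2, ATP5MK and COX7C, are not shown, whatever their values. COX6A1 and COX8C also have a marked motif in this stretch but are left out. Their differences between CDH26 and control clones were 0.01 and 0.02 log2 units, so the windows shown are not a selection blind to the values. Each stretch is the 150 bases before the gene's start, read 5′ to 3′ on the gene's own strand, from RefSeq on GRCh38.p14. Capitals mark the ETS motif CCGGAAG or the NRF1 core CGCANGCGC on either strand; a second ETS match of COX5B runs over the start and is not shown in full. The windows lie at chr3:48609647-48609796 on the minus strand (UQCRC1), chr14:103921530-103921679 on the minus strand (ATP5MJ) and chr1:46303548-46303697 on the plus strand (UQCRH). The others lie on the plus strand, at chr2:97645912-97646061 (COX5B), chr19:35648173-35648322 (COX6B1) and chr11:63974470-63974619 (COX8A).
UQCRC1: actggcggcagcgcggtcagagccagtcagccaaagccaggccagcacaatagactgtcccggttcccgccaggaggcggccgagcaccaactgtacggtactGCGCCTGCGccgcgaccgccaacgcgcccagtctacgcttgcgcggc
ATP5MJ: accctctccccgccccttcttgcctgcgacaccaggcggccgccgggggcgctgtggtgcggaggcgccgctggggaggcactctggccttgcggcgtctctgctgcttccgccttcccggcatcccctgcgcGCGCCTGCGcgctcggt
UQCRH: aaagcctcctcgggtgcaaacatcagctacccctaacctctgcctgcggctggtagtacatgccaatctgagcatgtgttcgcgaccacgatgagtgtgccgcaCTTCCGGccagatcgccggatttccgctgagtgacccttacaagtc
COX5B: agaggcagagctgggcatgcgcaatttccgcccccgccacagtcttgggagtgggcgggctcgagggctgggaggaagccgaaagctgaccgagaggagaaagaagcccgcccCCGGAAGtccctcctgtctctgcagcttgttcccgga
COX6B1: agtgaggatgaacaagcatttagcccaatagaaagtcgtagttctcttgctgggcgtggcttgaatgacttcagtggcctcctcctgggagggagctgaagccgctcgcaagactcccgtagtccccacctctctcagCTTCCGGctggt
COX8A: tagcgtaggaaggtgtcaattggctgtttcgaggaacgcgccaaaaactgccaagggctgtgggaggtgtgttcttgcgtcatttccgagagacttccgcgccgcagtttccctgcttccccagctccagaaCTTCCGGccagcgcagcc

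Motifs were counted on both strands in the full 300-base window of each gene, from 250 bases before to 50 after its start. Windows were found for 20 of the 25 subunit genes. The ETS motif was in 7 of these 20, or 35.0%, against 15.0% of 10736 windows of named genes on the array. The NRF1 core was in 4 of 20, or 20.0%, against 11.3%. A longer, strict form of the NRF1 motif that contains this core was in 0 of 20, against 1.99%. The YY1 motif AAGATGGCG was in 1 of 20, the window of UQCRC1, or 5.0%, against 2.88%. The ETS motif was in the windows of COX4I1, COX5B, COX6A1, COX6B1, COX8A, UQCRH and ATP5MK, and the NRF1 core in those of UQCRC1, ATP5MJ, COX6A1 and COX8C. These are matches of letters only. ETS matches occur in windows of subunits with positive and with negative differences. The 4 genes with the NRF1 core all had positive differences, 0.19 for UQCRC1, 0.13 for ATP5MJ, 0.01 for COX6A1 and 0.02 for COX8C. Among all 25 subunits, 16 had positive ones. A link between motifs and differences was not tested. The median GC content was 58.7% in the 20 windows and 63.3% in those of named genes.

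The deposited values are logarithms, taken here as log2, with the control mean set to 0 for each gene. They carry differences between clones and no expression level, so subunits cannot be compared with one another in abundance. Because of this centring the 2 control values of a gene are always equal and opposite, and their distance, called the control gap below, shows how far 2 clones of the same construct lay apart. The array number limits precision. The target itself checked the labels: CDH26 was at 2.87, 3.01 and 2.63 in the 3 CDH26 clones and at 0.01 and −0.01 in the control clones, a difference of 2.84 ± 0.13 (SE; limma, adjusted p = 0.25). In RNA from whole clones, fewer cells of a type and less RNA per cell cannot be told apart.

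The main comparison asked which respiratory chain transcripts differed between CDH26 and control clones. Differences were small in both directions. They ran from −0.28 log2 units for ATP5MK to 0.27 for COX6B2, a range from 0.822-fold to 1.2-fold. The median over the 25 genes was 0.07 log2 units, against 0.0 over all named genes. It was 0.03 when either control clone was left out, and 0.11 over the 17 of the 25 genes that had a different value on every array. The CDH26 mean was the higher one in 16 of 25 genes and the lower one in 9, while it was the higher one in 47.9% of all named genes. After limma, with p-values adjusted by Benjamini-Hochberg over 14812 genes, 0 of the 25 had an adjusted p under 0.05, and the lowest adjusted p was 0.626. Over all genes 0 passed as well, so the share called was 0.0%.

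At an unadjusted p under 0.05, 2 of 25 subunits were higher and 0 lower, against 3.51% of all genes higher and 4.0% lower. Both are single subunits of different complexes, UQCRC1 and ATP5MJ. The 2 groups did not overlap in 9 subunits, with the CDH26 clones above the controls in 7 and below them in 2. Across all named genes the shares were 8.98% above and 9.93% below. The 7 above were UQCRC1, COX5B, COX6B2, COX7A2, COX7B, COX7C and ATP5MJ, and the 2 below were UQCRH and COX5A. For 3 of the 7, COX5B, COX7A2 and COX7B, the nearest clones of the 2 groups were only 0.00152, 0.0032 and 0.0032 log2 units apart. With fewer clones the groups separate more easily, in subunits and in all genes alike. Without control clone 1 the count without overlap was 18, with 12 above and 6 below, against 52.9% of all genes, 25.9% above and 27.0% below. Without CDH26 clone 1 there were 11 above, against 12.2% of all genes. The count below was 4 without control clone 2, against 25.7%, and 4 without CDH26 clone 3, against 17.3%. All 9 subunits without overlap were among the 17 with a different value on every array, and of all such genes 16.4% lay above and 18.6% below.

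**Figure D1:**
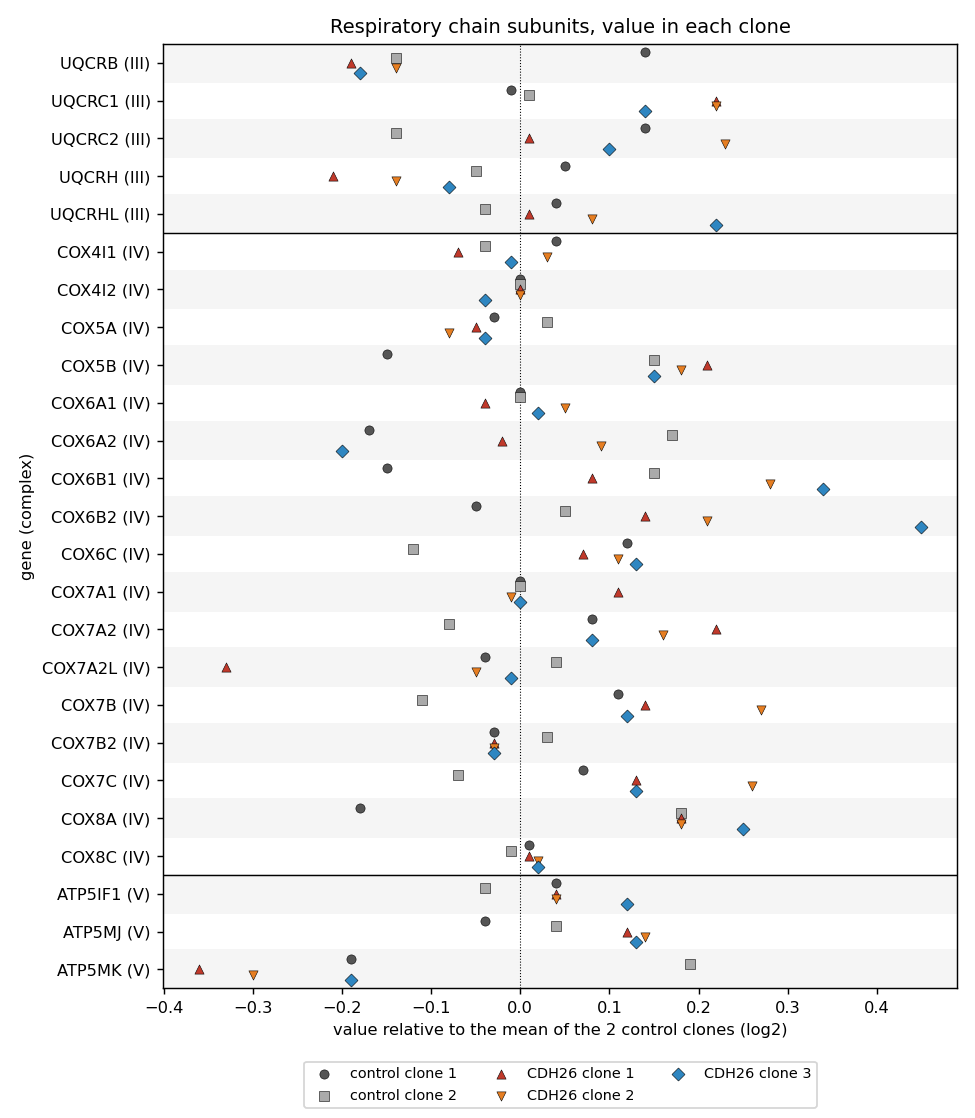
Value of each respiratory chain subunit in each of the 5 clones, in log2 units from the control mean, with genes grouped by complex (III, IV, V) and symbols offset vertically by clone. Nearly all CDH26 values lie within 0.3 log2 units of that mean; COX6B2 in CDH26 clone 3, at 0.45, and ATP5MK in CDH26 clone 1, at −0.36, lie furthest out.

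Among the subunits of complex III, the core protein UQCRC1 stood apart from the controls most clearly. The control clones were at −0.01 and 0.01, and CDH26 clones 1, 2 and 3 at 0.22, 0.22 and 0.14. All CDH26 clones lay above both controls, by at least 0.123. The mean was 0.19 ± 0.05 (SD, n = 3), and the difference was 0.19 ± 0.04 (SE; 95% interval 0.09 to 0.30), or 1.14-fold. The unadjusted p from limma was 0.00754 and the adjusted p 0.626. Fitted among genes without equal values only, the same difference had an unadjusted p of 0.0515. The other core protein, UQCRC2, was at 0.01, 0.23 and 0.10 in the CDH26 clones and at 0.14 and −0.14 in the controls. Here the groups overlapped, and the control gap of 0.29 was larger than the difference of 0.11 ± 0.12 (SE). The core proteins of complex III thus had differences of the same sign, but that of UQCRC2 lay inside the spread of the control clones.

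UQCRH, the acidic hinge protein that helps cytochrome c dock on complex III, was at −0.21, −0.14 and −0.08 in the CDH26 clones and at 0.05 and −0.05 in the controls. All CDH26 clones lay below both controls, the closest by 0.023. The difference was −0.14 ± 0.06 (SE) with an adjusted p of 0.626 in limma. UQCRHL, an intronless copy of UQCRH, was at 0.01, 0.08 and 0.22 against 0.04 and −0.04, a difference of 0.10 ± 0.08 in the opposite direction. The transcripts of this pair are nearly identical, so which of them a probe set reads is uncertain. UQCRB, the ubiquinone-binding protein, was at −0.19, −0.14 and −0.18 in the CDH26 clones. Control clone 2 shared the value of CDH26 clone 2, −0.14, and control clone 1 was at 0.14, so the difference of −0.17 ± 0.09 rested on control clone 1 and was −0.03 without it. CYC1, the cytochrome c1 subunit, which the symbol rule leaves out, was at 0.02 ± 0.02.

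All 17 nuclear genes of complex IV that fit the symbol rule were measured, and none of its mitochondrially encoded subunits. The 11 subunits that are not tissue-restricted forms had a median difference of 0.15, with 8 higher and 3 lower means in the CDH26 clones. The 6 restricted forms, COX4I2, COX6A2, COX6B2, COX7A1, COX7B2 and COX8C, had a median of 0.0, with 3 higher and 3 lower means. The groups did not overlap, with the CDH26 clones on top, in 4 of the 11 and in 1 of the 6, against 8.98% of all named genes. The control gap was larger than the difference in 7 of the 11 and in 2 of the 6, against 54.1% of all named genes. Of the 17 genes, 0 had an unadjusted p under 0.05. This split into forms was made with the values known and was not tested.

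The COX4 and COX5 subunits, which touch the catalytic core from the membrane and the matrix, gave small differences of both signs. COX4I1, the largest nuclear subunit, through which ATP regulates the enzyme, was at −0.07, 0.03 and −0.01 in the CDH26 clones and at 0.04 and −0.04 in the controls. Its difference was −0.02 ± 0.04 (SE; 95% interval −0.14 to 0.11). Its lung form COX4I2 had 0.0 in 4 clones and −0.04 in CDH26 clone 3. COX5A, which lies on the matrix side, was at −0.05, −0.08 and −0.04, below both controls at −0.03 and 0.03, with a difference of −0.06 ± 0.03. COX5B, the zinc-binding matrix subunit, was at 0.21, 0.18 and 0.15 against −0.15 and 0.15. Its difference of 0.18 ± 0.10 was 0.03 without control clone 1 and was 0.33 without control clone 2. COX5A and COX5B therefore had differences of opposite sign, each with a 95% interval that included 0.

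COX6B1, which faces the intermembrane space and joins the monomers of the enzyme, was at 0.08, 0.28 and 0.34 in the CDH26 clones and at −0.15 and 0.15 in the controls. The groups overlapped through CDH26 clone 1, and the difference was 0.23 ± 0.13 (SE). Leaving out control clone 1 gave 0.08, and leaving out control clone 2 gave 0.39. COX6B2, the testis form of the same subunit, was at 0.14, 0.21 and 0.45 against −0.05 and 0.05. All CDH26 clones lay above both controls, by at least 0.0882, and the difference of 0.27 ± 0.11 was the most positive of the 25. CDH26 clone 3 was the highest clone in both genes, and without it the differences were 0.18 and 0.18.

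COX6A1 was the only subunit with more than 1 probe set. Its 2 probe sets gave differences of 0.00 and 0.02, and their mean was 0.01 ± 0.03 (SE). In the heart and muscle form COX6A2 the control clones were at −0.17 and 0.17. The CDH26 clones spanned nearly the same range, at −0.02, 0.09 and −0.20, so its control gap of 0.34 was far larger than the difference of −0.04 ± 0.15. COX6C, a membrane subunit, was at 0.07, 0.11 and 0.13 against 0.12 and −0.12. Its difference of 0.10 ± 0.08 was −0.02 without control clone 2.

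The COX7 genes encode small subunits that span the membrane once. In 3 of 6 the CDH26 clones lay above the controls without overlap, against 8.98% of all named genes. COX7C was at 0.13, 0.26 and 0.13 in the CDH26 clones and at 0.07 and −0.07 in the controls, above both by at least 0.0585. Its difference was 0.17 ± 0.07 (SE; 95% interval −0.02 to 0.37). COX7B was at 0.14, 0.27 and 0.12 against 0.11 and −0.11, with a difference of 0.17 ± 0.09. COX7A2, the widely expressed form of its subunit, was at 0.22, 0.16 and 0.08 against 0.08 and −0.08, with a difference of 0.15 ± 0.07. In these 3 genes control clone 1 was the higher control. It lay only 0.0032 log2 units under the lowest CDH26 clone for COX7B and for COX7A2, and 0.0585 under it for COX7C. Without control clone 2 the differences were 0.10 for COX7C, 0.06 for COX7B and 0.08 for COX7A2.

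The restricted forms COX7A1 and COX7B2 hardly varied. COX7A1, the muscle form, was at 0.11 in CDH26 clone 1 and within 0.01 of 0 in all other clones. COX7B2, the testis form, had the same value, −0.03, in control clone 1 and in all 3 CDH26 clones, so its difference of −0.03 ± 0.02 (SE) came from control clone 2 alone. It was the 1 subunit with every CDH26 clone inside the control range, against 16.5% of all named genes. COX7A2L, which tethers complex III to complex IV in supercomplexes, was at −0.33 in CDH26 clone 1, and at −0.05 and −0.01 in clones 2 and 3, against −0.04 and 0.04. Its difference of −0.13 ± 0.12 rested on that clone and was −0.03 without it.

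COX8A, a small membrane subunit and the widely expressed form, was at 0.18, 0.18 and 0.25 in the CDH26 clones, while the controls were at −0.18 and 0.18. Control clone 2 equalled CDH26 clones 1 and 2, and the difference of 0.20 ± 0.12 (SE) was 0.02 without control clone 1. Its testis form COX8C was at 0.01, 0.02 and 0.02 against 0.01 and −0.01. Equal values such as these were frequent: in 8 of the 25 genes at least 1 CDH26 clone shared its value with a control clone, within 1e-05. A different value on every array was found in 17 of the 25 genes and in 46.3% of all named genes, so equal values were rarer among the subunits.

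**Figure D2:**
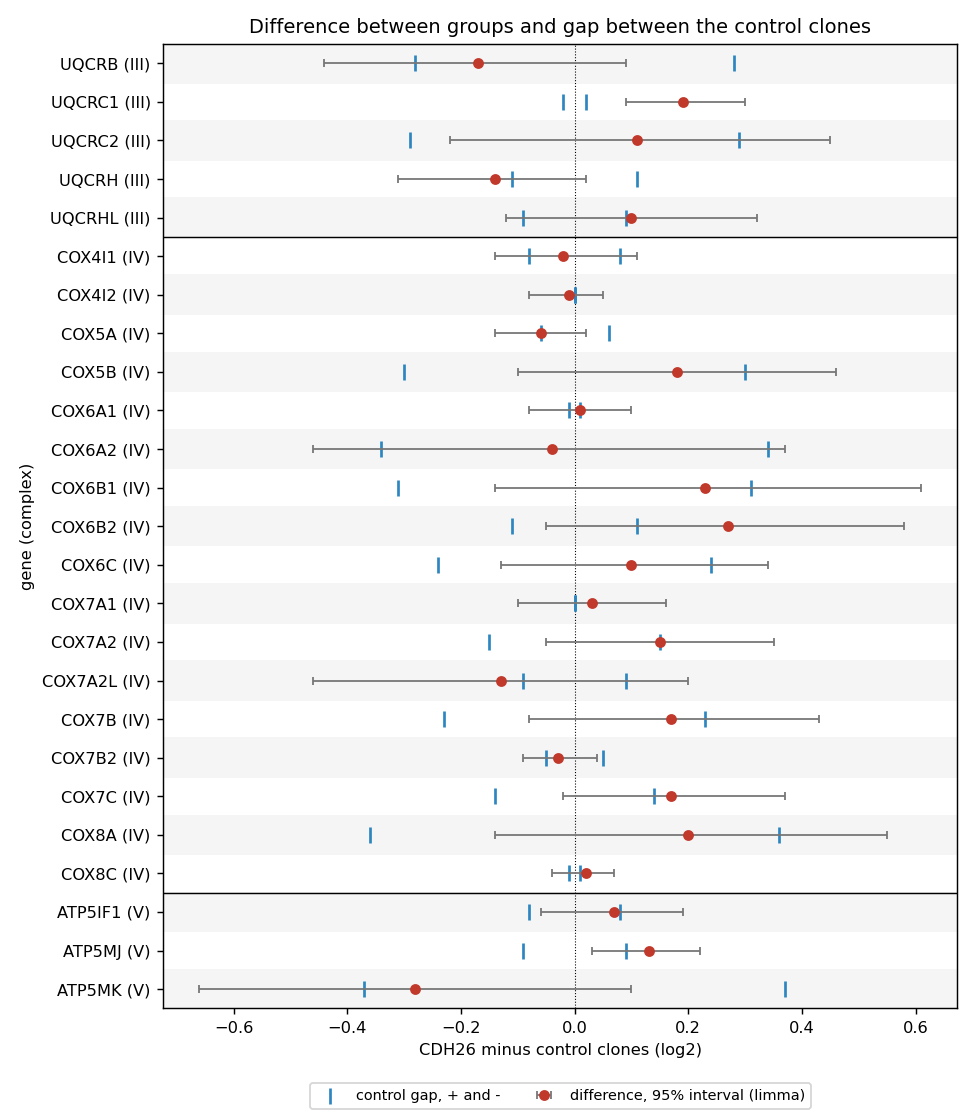
Difference between CDH26 and control clones for each subunit (red points) with its 95% interval from limma (grey bars), and the gap between the 2 control clones drawn on either side of 0 (blue ticks), all in log2 units. The interval leaves out 0 for UQCRC1 and ATP5MJ, both without adjustment for the number of genes tested, and in 13 of the 25 genes the control gap is larger than the difference.

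Complex V was represented by 3 small proteins, and by none of the catalytic F1 subunits. ATP5MJ, a proteolipid of the membrane sector, was at 0.12, 0.14 and 0.13 in the CDH26 clones and at −0.04 and 0.04 in the controls. All CDH26 clones lay above both controls by at least 0.0733 and within 0.02 of each other. The difference was 0.13 ± 0.03 (SE; 95% interval 0.03 to 0.22), or 1.09-fold, with an unadjusted p of 0.0213 and an adjusted p of 0.626 in limma. Among genes without equal values only, its unadjusted p was 0.155. ATP5MK, another small membrane-sector subunit, also known as DAPIT, was at −0.36, −0.30 and −0.19 against −0.19 and 0.19. Its difference, −0.28 ± 0.14, was the most negative of the 25, but CDH26 clone 3 equalled control clone 1. Leaving out control clone 1 gave −0.47, and leaving out control clone 2 gave −0.10. ATP5IF1, the inhibitor that blocks ATP hydrolysis when the membrane potential falls, was at 0.04, 0.04 and 0.12 against 0.04 and −0.04, a difference of 0.07 ± 0.04.

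The gap between the control clones was of a similar size to the differences between groups. It exceeded the difference in 13 of 25 subunits, or 52.0%, against 54.1% of all named genes. The median gap was 0.11 log2 units and the median absolute difference 0.13, against 0.09 and 0.07 over all named genes. A difference at least as far from 0 as that of ATP5MK was found in 12.2% of all named genes. Over the 25 genes the median value was 0.01, 0.08 and 0.08 in CDH26 clones 1, 2 and 3. CDH26 clone 3 was the highest of all clones in 7 genes and CDH26 clone 1 the lowest in 6, while control clone 2 was the lowest in 8.

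**Figure D3:**
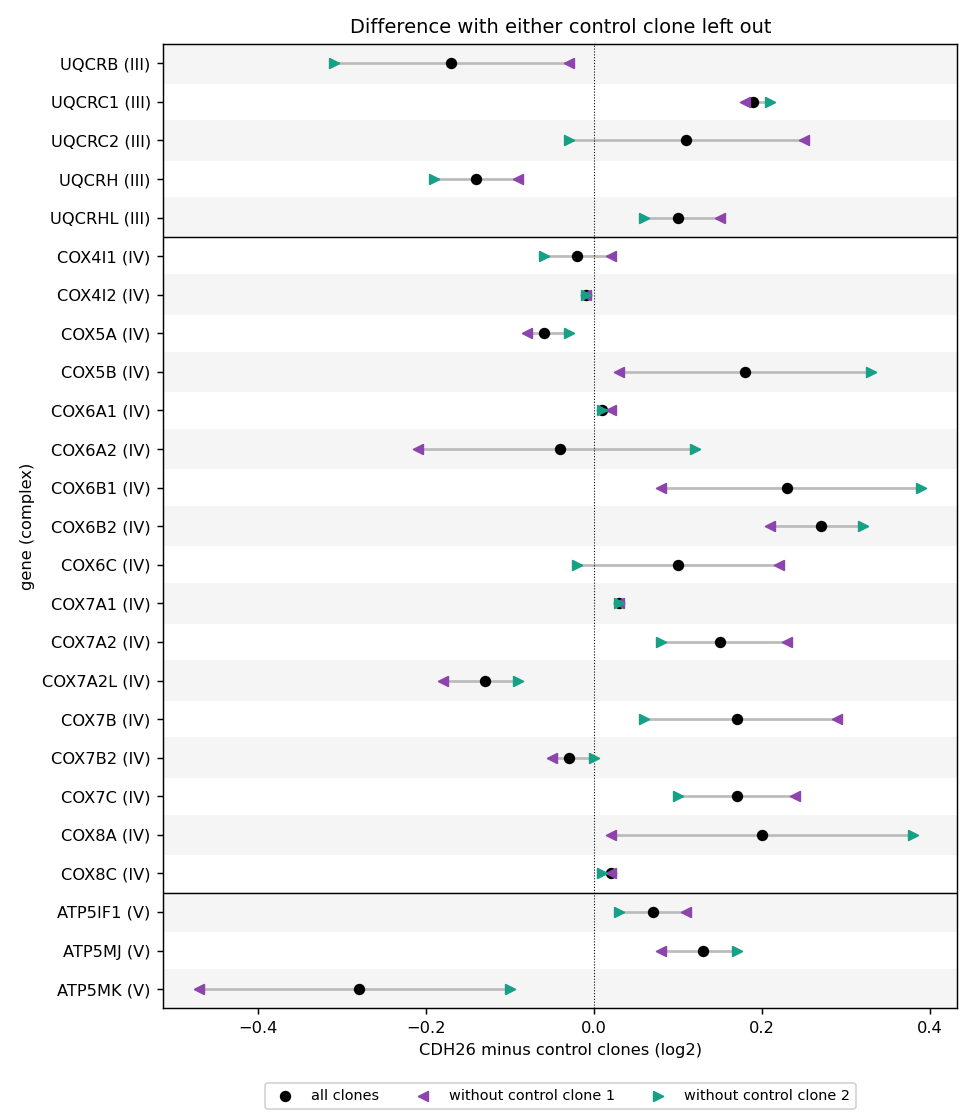
Difference between CDH26 and control clones in log2 units for each subunit with all clones (black circles), without control clone 1 (purple triangles) and without control clone 2 (green triangles). UQCRC1 moves little, from 0.18 to 0.21, whereas COX8A goes from 0.02 to 0.38 and ATP5MK from −0.47 to −0.10.

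Leaving out either control clone left 0 of the 25 subunits past the adjusted threshold, with lowest adjusted p-values of 0.123 and 0.128 in limma. Over all genes the count went from 0 to 186, or 1.26%, without control clone 1. Subunits at an unadjusted p under 0.05 were then 4 higher and 3 lower, against 10.5% and 9.95% of all genes. Without control clone 2 they were 4 higher and 1 lower, against 6.25% and 6.58%. UQCRC1 and ATP5MJ were higher at an unadjusted p under 0.05 in both, with p of 0.0487 and 0.0143 without control clone 1, and 0.0367 and 0.00232 without control clone 2. Without control clone 1 the other higher ones were COX6C and COX7B, and the lower ones were COX5A, COX7B2 and ATP5MK. Without control clone 2 the other higher ones were COX5B and COX8A, and the lower one was UQCRB. The lists thus differed apart from UQCRC1 and ATP5MJ. When a CDH26 clone was left out, UQCRC1 kept an unadjusted p of 0.0268, 0.0302 and 0.0021, and ATP5MJ had 0.0547, 0.0693 and 0.0615. With a single control clone, the fit takes all spread from the CDH26 clones.

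Genes that build and feed the chain were set beside its subunits. Of 63 listed assembly factors 47 were measured, 28 with a higher and 19 with a lower mean, and a median of 0.02. NDUFAF8, an assembly factor of complex I, was at −0.76, −0.66 and −0.44 in the CDH26 clones against −0.05 and 0.05, a difference of −0.62 ± 0.11 (SE). COA7, a complex IV assembly factor, was at −0.28, −0.32 and −0.27 against −0.04 and 0.04, a difference of −0.29 ± 0.04. Both lay below the controls in every CDH26 clone, and both had an adjusted p of 0.626 in limma. Both differences were further from 0 than that of any subunit. At an unadjusted p under 0.05, 3 of the 47 assembly factors were higher and 2 lower, against 3.51% and 4.0% of all genes.

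Electron carriers and enzymes of coenzyme Q synthesis had a median of 0.04 over 10 of 20 listed genes, with 2 of the 10 higher and 0 lower at an unadjusted p under 0.05, beside the same 3.51% and 4.0%. GPD2, the mitochondrial glycerol phosphate dehydrogenase that feeds electrons to ubiquinone, was at 0.66, 0.80 and 0.31 in the CDH26 clones and at 0.0 in both controls, a difference of 0.59 ± 0.17 (SE). COQ8B, a kinase-like protein of coenzyme Q synthesis, differed by 0.28 ± 0.07. In the citrate cycle, 11 of 19 genes were measured, with 6 higher and 5 lower means and a median of 0.01. IDH3A, the catalytic subunit of NAD-dependent isocitrate dehydrogenase, was at −0.12, −0.11 and −0.12 against −0.04 and 0.04, a difference of −0.12 ± 0.03, while OGDH, of the oxoglutarate dehydrogenase complex, differed by 0.22 ± 0.08. In limma the adjusted p was 0.626 for each of the 4.

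Regulators of mitochondrial biogenesis and of mitochondrial DNA had a median of −0.01 over 10 of 23 listed genes, 5 higher and 5 lower. NRF1 itself was at −0.22, −0.10 and −0.10 in the CDH26 clones and at 0.10 and −0.10 in the controls, a difference of −0.14 ± 0.08 (SE) with overlap between the groups. TWNK, the mitochondrial DNA helicase, was at −0.64, −0.58 and −0.43 against −0.16 and 0.16, a difference of −0.55 ± 0.13 (limma, adjusted p = 0.626). The 13 mitochondrially encoded subunits had no named probe set and were not analysed here.

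Genes for protein import and for the mitochondrial ribosome had mostly negative differences. Of 25 TOMM and TIMM genes 23 were measured, of which 19 were lower on average in the CDH26 clones, against 49.5% of all genes, with a median difference of −0.11. By clone, the median of the list stood at −0.17 in CDH26 clone 1, at −0.15 in clone 2 and at −0.07 in clone 3, with the controls at 0.02 and −0.02. The CDH26 clones were all under the controls in 6 genes and all over them in 1, against 9.93% and 8.98% of all genes. At an unadjusted p under 0.05, 3 were lower and 0 higher, against 4.0% and 3.51%. TOMM40, the channel of the outer membrane, was at −0.36, −0.33 and −0.27 against −0.06 and 0.06, a difference of −0.32 ± 0.05 (SE), although its 2 probe sets gave −0.46 and −0.18. The intermembrane chaperone TIMM10B differed by −0.48 ± 0.14. Of 73 measured MRPL and MRPS genes, 45 had a lower and 28 a higher mean, with a median of −0.03. The CDH26 clones were all under the controls in 17 of them and all over them in 6. At an unadjusted p under 0.05, 5 were lower and 2 higher, to be read against the shares of all genes just given. Those shares include genes with equal values on some arrays. Of genes with a different value on every array, 18.6% lay below and 16.4% above. In a limma fit of those genes alone, 7.54% were lower and 6.87% higher at an unadjusted p under 0.05. MRPL53 differed by 0.42 ± 0.08 and MRPS2 by −0.14 ± 0.03. No gene of these lists passed the adjusted threshold of 0.05 over all genes (limma), and the difference between these lists and the respiratory subunits was not tested.

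**Figure D4:**
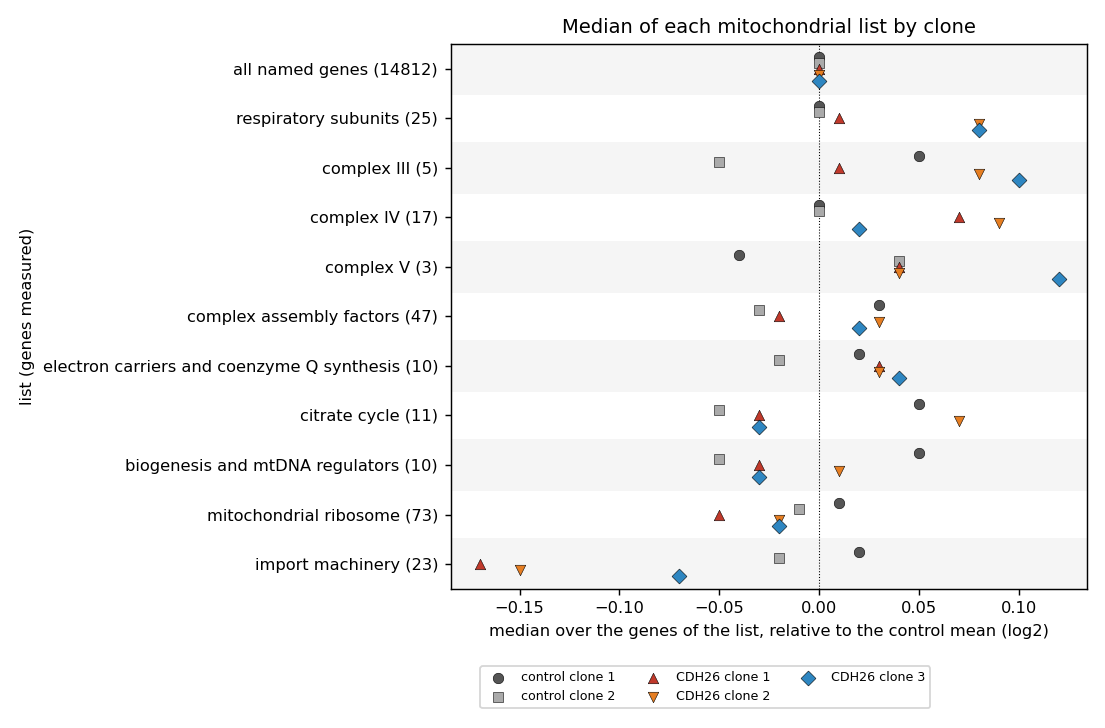
Median over the genes of each mitochondrial list in each of the 5 clones, in log2 units from the control mean, with the number of genes measured in brackets and symbols offset vertically by clone. The import machinery lies lowest in the CDH26 clones, at −0.17, −0.15 and −0.07, while the respiratory subunits lie between 0.01 and 0.08 in the same clones.

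Proliferation and cell identity were read for the same clones. Proliferation genes, all 13 measured, had a median of −0.07, 6 with a higher and 7 with a lower mean. The smallest unadjusted p-values were those of MCM6 at 0.32 ± 0.07 (SE) and TYMS at 0.20 ± 0.07. Of 9 squamous epithelial markers 6 were measured, each with a positive difference, against 47.9% of all named genes. In 5 of the 6 the CDH26 clones lay above both controls, against 8.98%. The control gap was larger than the difference in 3 of the 6. Over these markers the median control gap was 0.79 and the median difference 0.81. Their summed level cannot be given, since values are centred, but their median was 0.79, 1.06 and 0.65 in the CDH26 clones and 0.40 and −0.40 in the controls, with KRT14 at 2.72 ± 0.43 and SFN at 0.63 ± 0.11. Columnar markers, 7 of 8 measured, had a median of −0.07, with KRT19 at 0.35 ± 0.11 and KRT7 at −0.41 ± 0.18. Of 6 fibroblast markers LUM, at 1.59 ± 0.42, and DCN, at 0.02 ± 0.03, were measured, and of 5 leukocyte markers CD68, at 1.07 ± 0.33, and LYZ, at 0.01 ± 0.04. The part of any of these in the respiratory chain values was not tested. Whether TE7 cells express their defining markers could not be checked without levels.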

How the data were processed

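RNA of 5 TE7 clones, 2 control and 3 CDH26, was measured on 1 Affymetrix Gene 2.0 ST array each. The submitters' processing notes name Affymetrix Expression Console; its version, its settings and a genome build are not stated there. The authors' deposited log2 values (base unstated, taken as 2) are centred on the control mean: the 2 control values of every row sum to 0 within 1e-06.

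Of 44607 probe sets, 15835 carried 1 gene name, all found among RefSeq symbols (GRCh38.p14), and 28772 none. Probe sets of a gene were averaged. limma 3.58.1 (R 4.3.3; lmFit, eBayes) was fitted to all 14812 genes with the clone's group alone, and two-sided p-values were adjusted by Benjamini-Hochberg over these genes at 0.05. Standard errors and 95% intervals are moderated ones. The p-values measure the spread between clones of 1 line. The step was also run on simulated data with independent normal noise, not centred on the control mean. That run does not show how the fit performs on the deposited values. Subunits and lists were chosen with earlier results of these data known. Named genes were to be core subunits, isoform sets, the 3 smallest p of a complex, the 5 largest differences in each direction and the 2 smallest p of each list; here all 25 subunits are named, and CYC1 was added. The NRF1 core motif was chosen after seeing the data.

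Alternatives were centring of arrays on their medians, robust variances, weighted arrays, a block on replicate number, omission of each clone, an adjusted threshold of 0.1, separate probe sets, genes without ties and natural logarithms. Natural logarithms rescale every value alike, and the array medians over all genes were already 0.0. Calls under these settings therefore repeat those of the main fit and are no separate check. A filter on dim genes and a second quantile normalization were not run, since centred values carry no level.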

Additional observations from a re-analysis of the deposited data

How the results depend on the processing

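No alternative brought a subunit past an adjusted p of 0.05 in limma, and none passed 0.1; at an unadjusted p under 0.05, 2 were higher and 0 lower with all clones, but 0 in either direction among the 17 without ties, against 6.87% and 7.54% of all such genes. Over all genes the count was 0 with all clones and 1 among genes without ties, where CDH26, at 2.84, passed; it ran from 0 to 186 with a clone left out, where KRT19, at 0.51 without control clone 1, passed with an adjusted p of 0.0446. Subunits without overlap between the groups numbered 9, with 7 above and 2 below. With ties counted as no overlap, an alternative chosen after seeing the data, they numbered 16, with 6 below, against 47.1% and 22.5% of all genes. With a clone left out they ran from 10 to 18, from 7 to 12 above and from 2 to 6 below; over all genes the shares then ran from 23.4% to 52.9%, from 11.5% to 25.9% and from 11.9% to 27.0%.

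The median difference was 0.07 for all subunits, 0.10 for complex III, 0.03 for complex IV and 0.07 for complex V. Among genes without ties it was 0.11 for all subunits, 0.13 for complex IV and 0.13 for complex V. With a clone left out it ran from 0.03 to 0.08 for all subunits, from −0.03 to 0.15 for complex III, from 0.02 to 0.05 for complex IV and from 0.03 to 0.08 for complex V. The lowest values for all subunits and for complex III came without control clone 2.

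With a replicate block the complex III median was 0.04 and 0 subunits passed, and no other call changed. No control clone has replicate number 3, so the block sets CDH26 clone 3 aside. Its differences were those found without that clone, and it is not a separate check of them. Whether the numbers pair the clones could not be settled. Deviations of control and CDH26 clone 1 correlated at −0.20, and of clone 2 at −0.21, over all genes. The 2 control clones deviate by equal and opposite amounts, so these values are not independent of each other. Some signs turned. With array weights COX4I1 was at 0.01 and COX6A2 at 0.03; with the block COX6A2 was at 0.03 and LYZ at −0.01, and with probe sets kept apart LYZ was at −0.01 in 1 of them. With a clone left out COX4I1 ran from −0.06 to 0.02, COX6A1 from −0.01 to 0.03, COX6A2 from −0.21 to 0.12, COX6C from −0.02 to 0.22, COX7A1 from −0.01 to 0.05, UQCRC2 from −0.03 to 0.25 and LYZ from −0.01 to 0.03. Causes were not tested. The number of arrays and the missing levels limit what these values can show.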
